A study of Rattus norvegicus with 6 samples.

Results

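The miR-30 family was measured in rat hearts as 11 probes of a microarray carrying probes for 761 rat miRNAs. The probes were taken by name, as every probe called miR-30a, b, c, d or e with either arm. This gave 5 probes for 5p arms and 6 probes for 3p arms. The family itself was chosen with earlier results of these data known. A miRNA hairpin is cut into a duplex whose strands are named 5p and 3p after the side of the hairpin they come from. Hearts came from adult Sprague Dawley rats, male according to the study's methods. The 3 control rats (replicates 9, 10 and 11) received no DSS. The 3 DSS rats (replicates 13, 14 and 16) drank water with 3% dextran sodium sulfate, which injures the colon lining and gives colitis, in 4 cycles of 5 days, each followed by 9 days of plain water, over 8 weeks in all. Each array held total RNA of 1 heart, and which part of the heart was used is not given in the sources used here.

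The miR-30 miRNAs are abundant in heart muscle. Like other miRNAs, they guide a silencing complex to mRNAs that pair with their seed, the short stretch near the 5′ end. Their 5p arms share 1 seed and so have overlapping predicted targets, and they are known in the heart for restraining connective tissue growth factor and collagen production. They are also known as regulators of autophagy, of apoptosis and of mitochondrial fission. The 3p arms are cut from the same hairpins, usually reach lower levels, and have other seeds and therefore other targets.

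RefSeq (assembly GRCr8) gave 6 of the 11 members by name, and each was identical to the sequence the array probe was designed for. The 5p sequences below are shown because the whole 5p family has this seed while the rest of the sequence differs between members. The capitals mark bases 2 to 8, the seed, and miR-384-5p is the only miRNA on the array outside the family that has it.
miR-30a-5p: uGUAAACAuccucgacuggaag
miR-30e-5p: uGUAAACAuccuugacuggaag
miR-30c-5p: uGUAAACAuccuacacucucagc
miR-384-5p: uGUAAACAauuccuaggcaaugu

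The 3p sequences are shown because their seeds divide the 3p arms into groups. The seed UUUCAGU was shared by miR-30a-3p, miR-30d-3p and miR-30e-3p. The seed UGGGAGA was shared by the 3p arms of both miR-30c hairpins, and miR-30b-3p had a seed of its own, UGGGAUG. Capitals again mark the seed.
miR-30a-3p: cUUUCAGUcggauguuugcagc
miR-30c-1-3p: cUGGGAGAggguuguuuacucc
miR-30c-2-3p: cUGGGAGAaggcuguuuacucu

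The hairpin of miR-30a is given because its arms moved in opposite directions. Mir30a lies at chr9:33233941-33234011 on the plus strand of GRCr8 and has 71 bases, with the 5p and then the 3p mature sequence in capitals.
Mir30a hairpin: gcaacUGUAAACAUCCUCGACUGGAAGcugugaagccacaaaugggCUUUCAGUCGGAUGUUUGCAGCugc
The 6 hairpins form 3 neighboring pairs. Mir30c1 (chr5:139634455-139634543) and Mir30e (chr5:139637450-139637541) lie 2906 bases apart on the minus strand within the gene Nfyc. Mir30a and Mir30c2 (chr9:33253682-33253765) are separated by 19670 bases, and Mir30b and Mir30d on chromosome 7 by 3715 bases. The mature miR-30c-5p is the same from Mir30c1 and Mir30c2, so 1 probe measured the product of both.

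Between 223 and 365 of the 761 miRNAs were detected per array, most of them on DSS replicate 13, and testing was limited to the 282 miRNAs found on 3 or more of the 6 arrays. Of these, 139 (49.3%) passed an adjusted p of 0.05 in limma, a linear model across all miRNAs, with 80 (28.4%) lower and 59 (20.9%) higher in DSS hearts. The control and DSS values did not overlap for 187 of the 282 (66.3%). Before normalization, the 19 spike-in probes were 0.73 lower on the log2 scale on the DSS arrays (11.62 ± 0.14 against 10.88 ± 0.58, SD, n = 3 each), and the 6 probes for 5S rRNA were 0.42 lower. These control probes were not used in the normalization, and results scaled to them are given below. The cardiomyocyte miRNAs miR-1-3p, miR-133a-3p, miR-133b-3p and miR-499-5p were detected on all arrays, while miR-208a-3p was detected on 1 and miR-208b-3p on none.

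All 5 miR-30 5p arms were lower in DSS hearts, by 1.86 to 5.00-fold, and each passed the test (adjusted p from 0.0151 to 0.0252 in limma). Their control and DSS values did not overlap for 5 of 5. These counts stand beside 28.4% of all tested miRNAs called lower and 66.3% without overlap. The median log2 change was -1.48 over the 5p arms and -0.06 over all 282 miRNAs tested. Levels below are log2 normalized signal, in which a difference of 1 is a doubling, and they cannot be compared between probes, which bind with different strength. Whether fewer cells of a type or less of the miRNA per cell lay behind a lower signal cannot be told apart in RNA of heart tissue.

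The largest change was that of rno-miR-30e-5p (rno for rat), whose hairpin lies within Nfyc. Its signal was 13.26, 11.92 and 12.13 in control replicates 9, 10 and 11, and 11.01, 9.54 and 9.79 in DSS replicates 13, 14 and 16. Each DSS heart was below each control heart, with control 9 and DSS 13 the highest of their groups. The mean fell from 12.44 ± 0.72 to 10.11 ± 0.79 (SD, n = 3 each), a 5.00-fold difference. The log2 change was -2.32 with an SE of 0.50 and a 95% interval from -3.51 to -1.13 (limma, adjusted p = 0.0161). In the authors' processed intensities, which are linear, the same probe read 10072, 4627 and 4891 in control and 2141, 550 and 867 in DSS hearts.

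The probe for rno-miR-30b-5p read 13.59, 12.37 and 12.86 in the control hearts and 11.54, 10.70 and 10.75 in the DSS hearts, again without overlap. This was a 3.84-fold lower signal, with a log2 change of -1.94 (SE 0.38, 95% interval -2.84 to -1.04, limma adjusted p = 0.0151). For rno-miR-30a-5p the control values were 13.49, 12.32 and 12.84 and the DSS values 11.87, 11.14 and 11.22. Its control hearts lay above every DSS heart, the mean being 2.78-fold lower in DSS (log2 change -1.48, SE 0.35, 95% interval -2.31 to -0.64, limma adjusted p = 0.0182).

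The smaller changes were those of miR-30d-5p and miR-30c-5p. Signals of rno-miR-30d-5p were 13.44, 12.42 and 12.72 in control and 12.09, 11.65 and 11.55 in DSS hearts. The groups were apart, and the signal was 2.14-fold lower (log2 change -1.10, SE 0.31, 95% interval -1.82 to -0.37, limma adjusted p = 0.0252). The probe for rno-miR-30c-5p, fed by hairpins on chromosomes 5 and 9, read 14.46, 13.72 and 13.97 in control and 13.37, 12.99 and 13.10 in DSS hearts. This was the smallest decrease of the 5p arms, 1.86-fold, with the narrowest spread between hearts (log2 change -0.90, SE 0.24, 95% interval -1.47 to -0.32, limma adjusted p = 0.0229). Its brightest spot read 25249, below the brightest spot of each array (48608 to 59496).

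**Figure D1:**
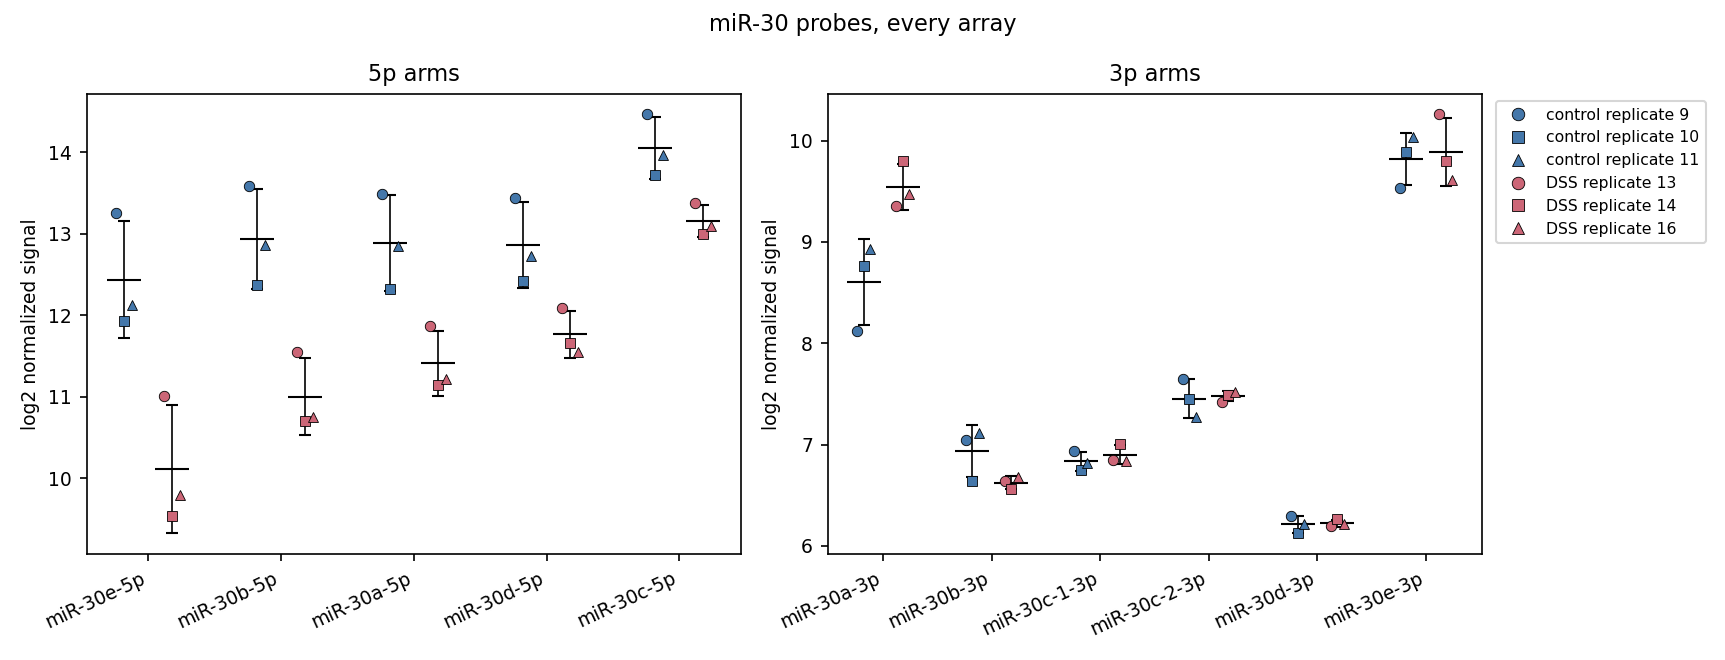
The vertical axes give log2 normalized signal of each miR-30 probe, with 5p arms on the left and 3p arms on the right. Each marker is 1 heart (blue control, red DSS), the long dash is the group mean and the bar 1 SD (n = 3). The DSS markers lie below the control markers for all 5 of the 5p probes and above them for miR-30a-3p, levels are not comparable between probes, and miR-30d-3p was not detected on any array.

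The 5p arms moved together from heart to heart as well as between groups. Their mean log2 signal was 13.65, 12.55 and 12.90 in control replicates 9, 10 and 11 and 11.98, 11.21 and 11.28 in DSS replicates 13, 14 and 16. It fell from 13.03 ± 0.56 to 11.49 ± 0.43 (SD, n = 3 each), a difference of -1.55. Control 9 gave the highest control value and DSS 13 the highest DSS value for each of the 5 probes. This was not particular to the family. The same arrays were highest in their groups for miR-16-5p, miR-195-5p, miR-29a-3p, miR-29b-3p and miR-29c-3p, but not for miR-143-3p or miR-150-5p. Among these, miR-16-5p and miR-195-5p are named below as picked for their likeness to the 5p mean. The share of all miRNAs tested with these arrays highest was not computed. Each of the 4 spots of every 5p probe gave a negative difference without overlap between groups, and the CV between the 4 spots on an array ranged from 2.09% to 15.8%. Before normalization, 4 of the 5 probes were without overlap between groups in brightness above the background. The exception was miR-30d-5p, at 6739 on DSS 13 and 6662 on control 10, and miR-30a-5p was close to overlap with 5797 and 6147 on the same arrays. The share of all miRNAs without overlap in this unnormalized brightness was not computed. The spike-in and 5S rRNA probes were also dimmer on the DSS arrays before normalization.

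These calls depended on single hearts and on the scaling, while the direction did not. All 5 changes were negative under each of the 24 alternative settings, and the mean change ranged from -2.22 to -1.11. Settings that alter only the detection filter or the test leave every log2 change as it was, so they could not alter a direction. Without DSS replicate 16, none of the 5 passed the adjusted threshold in limma, and 5 passed an unadjusted p of 0.05. By the methods' t-test none passed after adjustment either (5 at an unadjusted p under 0.05), and with no filter on dim probes 1 passed, miR-30b-5p. The call of miR-30c-5p was also lost with an offset of 16 (-0.55, adjusted p = 0.0558 in limma) and with the authors' processed values at a pseudocount of 1 (adjusted p = 0.0659 in limma). Without DSS replicate 16 none of all 282 miRNAs passed in limma, with 129 at an unadjusted p under 0.05. With DSS replicate 14 left out 2 were called, and with control replicate 9 or 11 left out 3. Scaling to the spike-in probes or to 5S rRNA left 3 called lower, miR-30a-5p, miR-30b-5p and miR-30e-5p, and shifted the median change of all miRNAs tested to 1.09 and 0.78. Relative to the median of all miRNAs tested, the mean 5p change lay between -2.21 and -1.18 in all settings. Not every setting could alter this measure. A single factor per array cancels in it, so no normalization and the scalings of this kind necessarily gave the same value, -2.21. Changing only the test leaves it as it was, and changing only the detection filter moves only the median. The split of all calls was 147 higher and 15 lower with spike-in scaling, and 129 higher and 14 lower with 5S rRNA scaling. Without any normalization it was 81 higher and 38 lower.

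**Figure D2:**
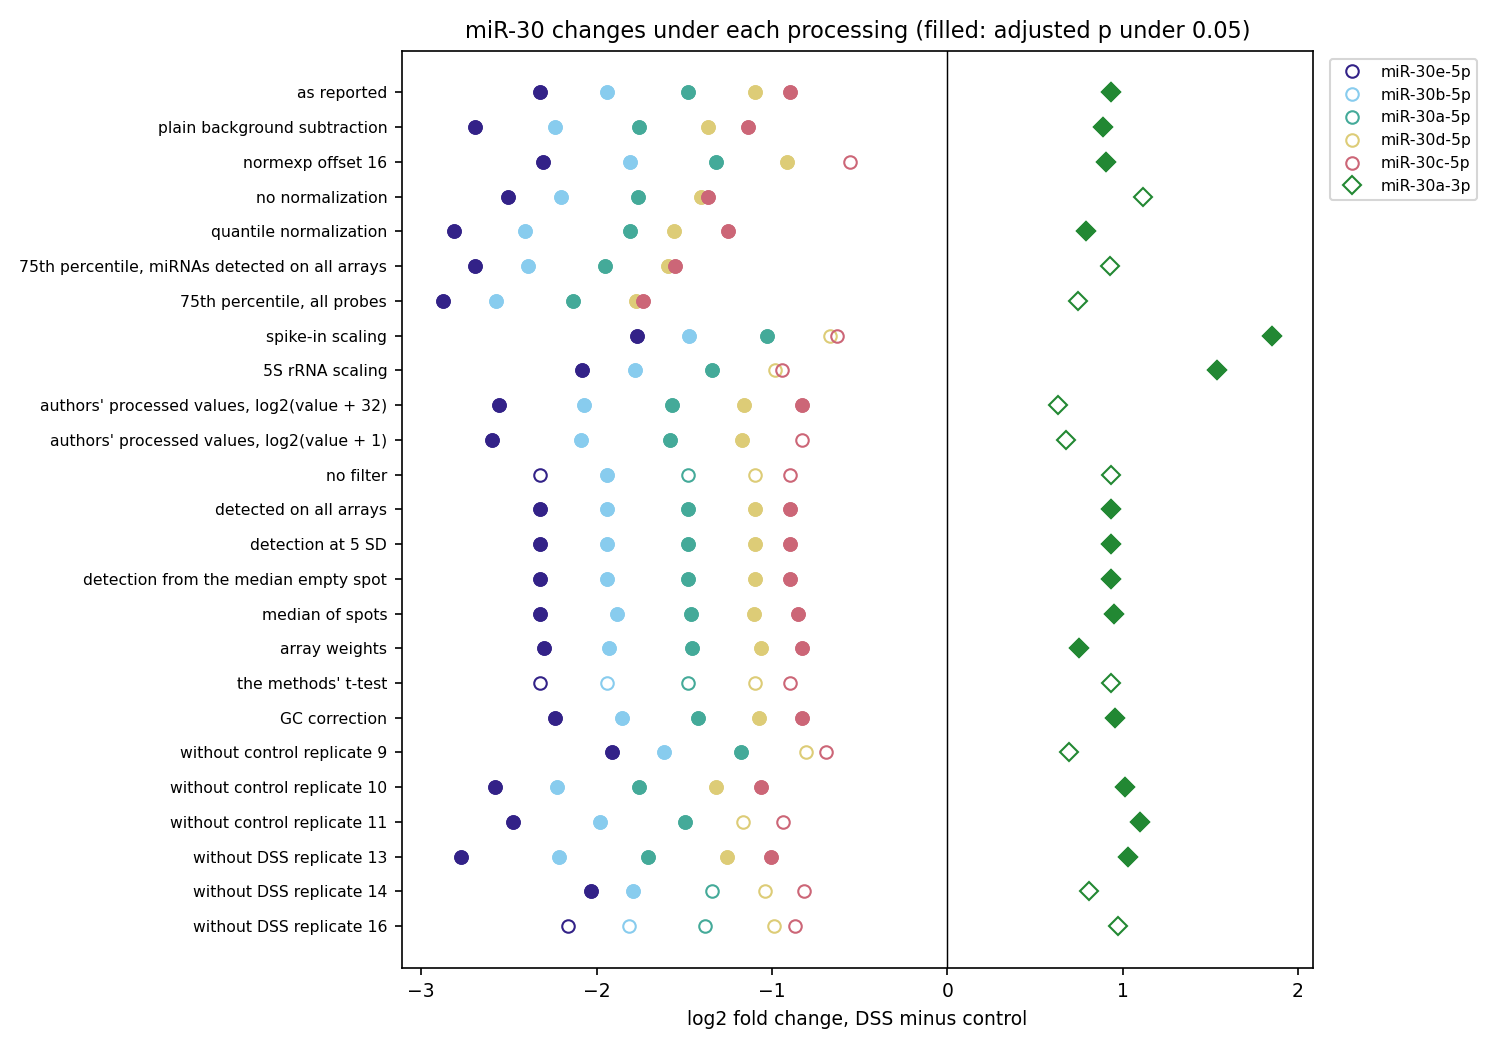
The horizontal axis gives the log2 change, DSS minus control, and each row is 1 way of processing the same arrays, with the processing used in the text at the top. Circles are the 5p arms and diamonds miR-30a-3p, filled where the adjusted p was under 0.05. The 5p arms stay below 0 and miR-30a-3p above 0 in every row, while 2 symbols are filled without DSS replicate 14 and none without DSS replicate 16 or with the methods' t-test.

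The size of the decrease differed between 5p members in the same order in all 25 settings compared. The order ran from miR-30e through miR-30b, miR-30a and miR-30d to miR-30c. Not every setting could alter it. Changing only the detection filter or the test leaves the log2 changes as they were. No normalization and the scalings by a single factor per array shift all probes alike, so their order is necessarily the same. To test the difference between members, each was set against the mean of the other 5p members on the same array. A common scaling factor per array does not alter this measure. By this measure miR-30e-5p decreased more than its relatives by -0.97 (SE 0.36, 95% interval -1.80 to -0.14, limma adjusted p = 0.0429). Of all 282 miRNAs tested, 63.8% departed from the 5p mean at the same threshold. The departure of miR-30c-5p in the other direction was 0.81 (SE 0.33, 95% interval 0.05 to 1.57, limma adjusted p = 0.0560), which did not pass. Those of miR-30d-5p (0.56), miR-30b-5p (-0.49) and miR-30a-5p (0.09) did not pass either, with adjusted p of 0.131, 0.170 and 0.793 in limma.

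Each departure kept its sign in all 24 alternative settings. Those changing only the detection filter or the test could not alter it. No normalization and the scalings by a single factor per array necessarily gave the same departures. The call for miR-30e-5p was lost in 12 of 24 settings. It was lost without control replicate 9, 10 or 11 and without DSS replicate 14 or 16, where departures of miR-30e-5p ranged over -1.23 to -0.79 with every single-heart omission counted. Set against each other within arrays, 8 of the 10 pairs of 5p members had control and DSS differences that did not overlap. The share over pairs of other miRNAs was not computed. The 66.3% without overlap is for signals of single miRNAs, which is another measure. The 10 pairs share 5 probes. The exceptions were miR-30b-5p with miR-30e-5p and miR-30c-5p with miR-30d-5p. The targets of miR-30a-5p and miR-30e-5p differ by an edit distance of 1 base, and so do those of miR-30a-5p and miR-30d-5p. The log2 change of miR-30e-5p exceeded that of miR-30a-5p by 0.85, and the groups were apart. How far such close probes also bound each other's miRNA was not tested.

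In the 3p arms, 1 of the 5 tested passed, miR-30a-3p, and it was higher in DSS hearts, whereas none was called lower in limma (of all tested, 20.9% were called higher and 28.4% lower). The median log2 change of the 3p arms tested was 0.07. Signals of rno-miR-30a-3p were 8.12, 8.76 and 8.93 in control replicates 9, 10 and 11 and 9.35, 9.80 and 9.47 in DSS replicates 13, 14 and 16. All DSS hearts were above all control hearts, with control 9, the highest for the 5p arm, now the lowest. The signal was 1.91-fold higher (8.61 ± 0.42 to 9.54 ± 0.23, SD, n = 3 each), a log2 change of 0.94 (SE 0.26, 95% interval 0.31 to 1.56, limma adjusted p = 0.0261).

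Before normalization the groups were apart for miR-30a-3p as well. Its brightness above the background was 165, 311 and 540 in control hearts, against 1008, 673 and 581 in DSS hearts. In the authors' processed intensities it read 293, 371 and 443 in control and 527, 613 and 612 in DSS hearts, again without overlap. Its log2 change was positive in all 24 alternative settings, from 0.63 to 1.85, but did not pass in 10 of them (adjusted p up to 0.0820). Those 10 included the authors' processed values and the arrays without control replicate 9 (0.70) and without DSS replicate 14 or 16. Settings that alter only the detection filter or the test left the log2 change as it was and could not alter its sign.

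The second 3p arm with a clear signal, rno-miR-30e-3p, has the same seed as miR-30a-3p and did not pass. It read 9.53, 9.88 and 10.03 in control and 10.26, 9.80 and 9.61 in DSS hearts, so the groups overlapped. The log2 change was 0.07 (SE 0.24, 95% interval -0.51 to 0.65, limma adjusted p = 0.830), an interval that leaves room for a difference in either direction. On control replicate 11 its 4 spots had a CV of 45.6%, against 9.66% to 15.2% on the other arrays. With the median of the spots in place of their mean the change was -0.04, and over all alternatives it ranged from -0.46 to 0.80 without being called.

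The remaining 3p arms were dim. The probe for miR-30c-2-3p was detected on all arrays and read between 7.27 and 7.65, with a log2 change of 0.02 (95% interval -0.40 to 0.44, limma adjusted p = 0.907). miR-30c-1-3p was detected on 1 control and 3 DSS arrays and changed by 0.07 (95% interval -0.32 to 0.45, limma adjusted p = 0.760). miR-30b-3p was detected on 2 control arrays and 1 DSS array and changed by -0.31 (95% interval -0.77 to 0.15, limma adjusted p = 0.208). The offset of 50 added before the logarithm narrows differences at such signals. Scaling to spike-ins put miR-30c-1-3p at 1.29 and miR-30c-2-3p at 1.39, both called higher, and scaling to 5S rRNA put them at 0.98 and 1.07, also called higher. miR-30b-3p was negative in 19 of the 22 alternatives that tested it and reached 0.86 with spike-in scaling. miR-30d-3p was not detected on any array, was not tested and has no fold here.

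**Figure D3:**
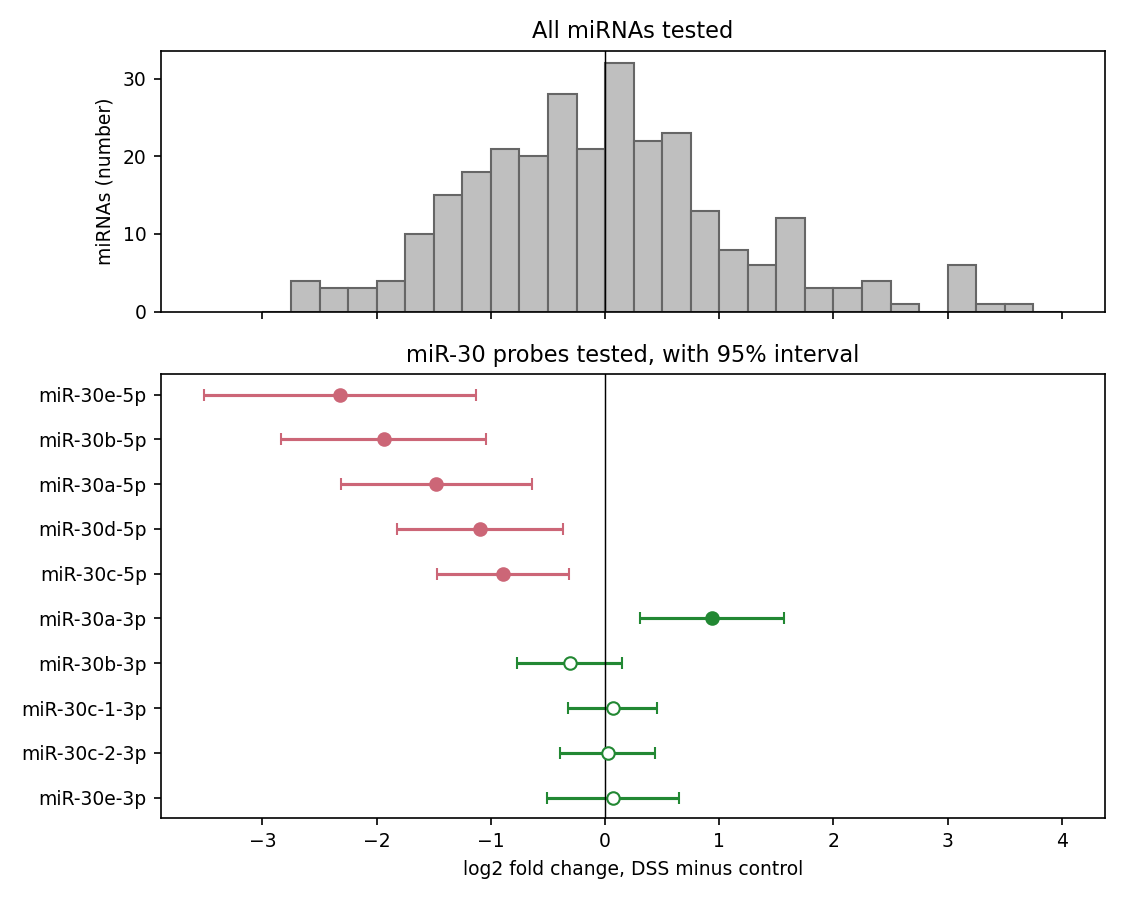
The upper panel counts all 282 miRNAs tested by their log2 change, DSS minus control, in bins of 0.25, and the lower panel gives the change of the 10 miR-30 probes tested with its 95% interval (red 5p, green 3p, filled where the adjusted p was under 0.05). The 5 red points lie between -2.32 and -0.90, in the left part of the distribution, and miR-30a-3p lies at 0.94.

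The arms of each hairpin were then set against each other within arrays, as the log2 signal of the 5p probe minus that of the 3p probe. A change in this ratio is unaffected by a scaling factor common to an array, although its level has no meaning across probes. Of 57 hairpins with both arms tested, 19 (33.3%) changed their ratio in limma, 8 (14%) towards lower 5p and the rest towards higher 5p. The ratio fell in all 5 miR-30 hairpins that could be tested, which are 5 of those 8. The groups did not overlap in any of these 5, against 52.6% of all hairpins without overlap. Hairpins of 1 family with similar 5p probes are not independent, and both miR-30c hairpins use the same 5p probe. Of the 3p arms only miR-30a-3p passed, and those of miR-30b and both miR-30c hairpins were dim. With such dim 3p arms the ratio largely repeats the 5p decrease. The miR-30c ratios changed by -0.96 and -0.92, beside -0.90 for miR-30c-5p itself.

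For miR-30a the ratio was 5.37, 3.56 and 3.91 in control and 2.52, 1.34 and 1.75 in DSS hearts. It fell by 2.41 (SE 0.53, 95% interval -3.66 to -1.17, limma adjusted p = 0.0154), to which the lower 5p arm and the higher 3p arm both contributed. For miR-30e the ratio was 3.73, 2.04 and 2.09 in control and 0.76, -0.26 and 0.19 in DSS hearts. This drop of similar size (-2.39, SE 0.52, 95% interval -3.60 to -1.18, limma adjusted p = 0.0154) came with a 3p arm that did not pass the test. By size of change they ranked 5 and 6 among the 57 hairpins.

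In miR-30b the ratio read 6.54, 5.72 and 5.74 in control and 4.90, 4.14 and 4.07 in DSS hearts, a change of -1.63 (SE 0.36, limma adjusted p = 0.0154). The hairpins of miR-30c changed least, by -0.96 for miR-30c-1 (SE 0.28) and -0.92 for miR-30c-2 (SE 0.27), each with a limma adjusted p of 0.0373. Cyclic LOWESS adjusts bright and dim probes by different amounts and so alters these ratios. With no normalization or with any single scaling factor per array the changes were -1.92 for miR-30c-1, -2.01 for miR-30c-2, -2.33 for miR-30b, -2.57 for miR-30e and -2.88 for miR-30a. Of these, the 3p arm of miR-30b was below the detection limit on 1 control and 2 DSS arrays, and that of miR-30c-1 on 2 control arrays. All ratios decreased in every alternative that tested them, but calls were lost. Changing only the detection filter or the test could not alter the direction of a ratio. Leaving out DSS replicate 14 or 16 left 0 of the 5 called in limma, and leaving out control replicate 9 or 11 left 3. With the authors' processed values 3 were called as well.

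**Figure D4:**
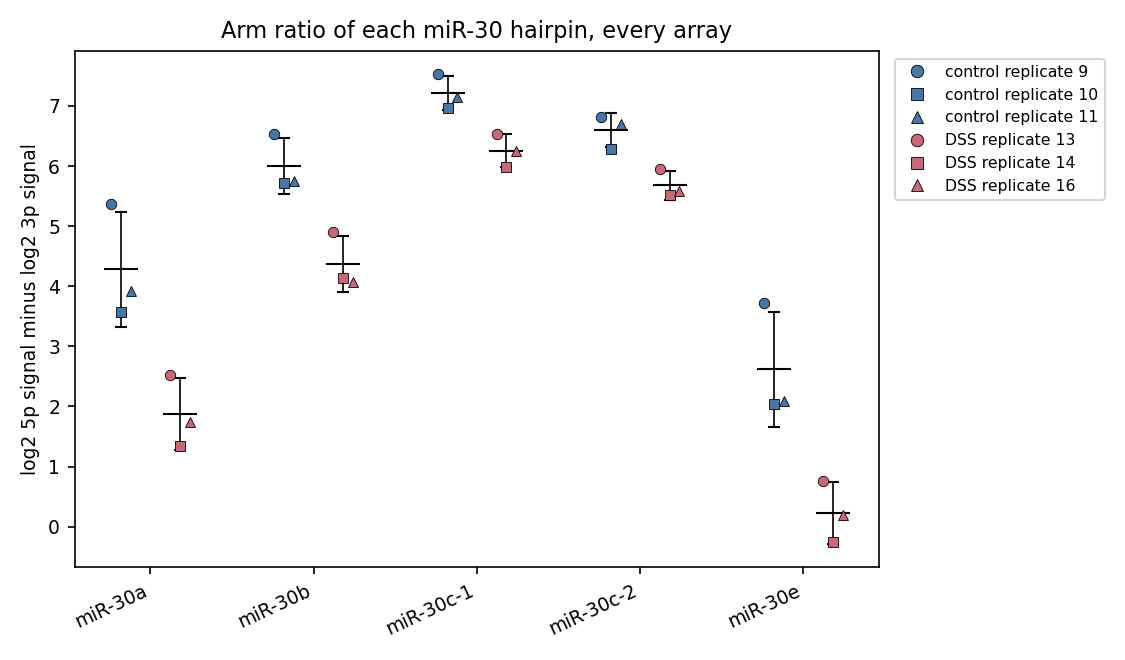
The vertical axis gives log2 5p signal minus log2 3p signal for each miR-30 hairpin with both arms tested. Markers are single hearts (blue control, red DSS), the long dash is the group mean and the bar 1 SD (n = 3). Each DSS heart lies below each control heart in all 5 hairpins, with the largest drops in miR-30a (-2.41) and miR-30e (-2.39).

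Properties of the probes were set beside the changes. The 5p targets hold 40.9% to 50% G and C, and across the 282 miRNAs tested the log2 change had a Pearson r of 0.06 with GC content (Spearman rho 0.11). This is a correlation across miRNAs on the same 6 arrays, which are not independent replicates. The other 113 tested miRNAs in that GC range had a median change of -0.30, with 21 called higher and 36 lower. The 36 other miRNAs at least as bright as the dimmest miR-30 5p probe had a median of 0.72, with 16 called higher and 10 lower. Taking out a linear trend with GC content on each array, an alternative chosen after the data were seen, kept all 5 of the 5p calls and that of miR-30a-3p.

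The other miRNA with the 5p seed, miR-384-5p (mature sequence at chrX:74490939-74490961, minus strand, GRCr8), was detected on 1 array, control replicate 9. Its signal lay between 6.04 and 6.73 on all arrays, near the background, and it was not tested. Of the miRNAs outside the family, 5 came closest to the pattern of the 5p mean over the 6 arrays, by the root mean square (RMS) difference in log2 signal after centering each on its own mean. They were miR-16-5p (RMS difference 0.06, log2 change -1.58), miR-195-5p (0.08, -1.44), miR-22-3p (0.14, -1.45), miR-199a-5p (0.15, -1.58) and miR-201-5p (0.17, -1.45). This is a description of 6 arrays, and these miRNAs were picked for their likeness. The signal of miR-201-5p was 6.47, 5.97 and 6.25 in DSS hearts, near the background. Its change was -0.18 with spike-in scaling and -3.67 with plain background subtraction.

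The miRNAs that, with miR-30, are known to target connective tissue growth factor or collagens were given by a list of 8, of which 6 were tested. In limma, 4 were called lower and none higher, beside 28.4% of all tested called lower and 20.9% higher, with a median log2 change of -1.40 against -0.06 over all tested. Each of these 4 kept its sign in the alternatives and lost its call in some of them, miR-19b-3p being at -0.34 with spike-in scaling, and none of the 4 passed in limma without DSS replicate 14 or 16. The called ones were miR-29a-3p (-1.26, adjusted p = 0.0213), miR-29b-3p (-2.04, adjusted p = 0.0393), miR-29c-3p (-2.74, adjusted p = 0.0197) and miR-19b-3p (-1.55, adjusted p = 0.0213), all from limma. Of these, miR-29b-3p was detected on 5 arrays and miR-19b-3p on 4. The miR-29 probes belong to the same family, so their calls are not independent. The signal of miR-19b-3p was 6.33, 5.70 and 6.19 in DSS hearts, near the background, and its change was -4.75 with plain background subtraction. miR-29 restrains collagens, and miR-19 targets connective tissue growth factor. The muscle miRNAs miR-133a-3p (-0.67, adjusted p = 0.0527) and miR-133b-3p (-0.34, adjusted p = 0.294) did not pass in limma, while miR-18a-5p was detected on 1 array and miR-19a-3p on none.

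Signals of cell type markers are given beside these results. Of all miRNAs tested, 28.4% were called lower and 20.9% higher, and a sum over probes follows its brightest probe. The summed linear signal of 2 erythroid miRNAs was 2109 to 5690 in control and 346 to 985 in DSS hearts, almost wholly from miR-451-5p, since miR-144-3p was detected on no array. Over 4 leukocyte miRNAs the sum was 2241 to 4876 in control and 8513 to 9959 in DSS hearts, mostly from miR-150-5p. This miRNA was called higher and miR-223-3p lower in limma (miR-223-3p at 0.00 with spike-in scaling), and miR-142-3p and miR-142-5p were each detected on 1 array only. The sum over 2 endothelial miRNAs was 12259 to 20280 against 4694 to 10308, with 1 of 2 called lower, and over 2 smooth muscle miRNAs 11724 to 18222 against 8230 to 8447, with 1 of 2 called lower. Over 3 fibroblast miRNAs it was 4817 to 4921 against 3451 to 4532, with 1 called higher and 2 lower. The sum over 6 cardiomyocyte miRNAs overlapped (41556 to 64817 against 38959 to 94832), with miR-1-3p called higher (3.11) and miR-499-5p called lower (-2.09). Of 5 miRNAs of liver, epithelium and brain, 3 were tested, miR-192-5p being called lower and miR-200b-3p higher, and miR-124-3p was detected on no array. The probe for miR-200b-3p was detected on 3 arrays and read 6.31 to 6.49 in control hearts, near the background, and 6.68 to 7.16 in DSS hearts. Its call was narrow (limma adjusted p = 0.0494) and was lost in 11 of the 21 alternatives that tested it. The part of these shifts in the miR-30 values was not tested.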

How the data were processed

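Heart RNA of 3 control and 3 DSS rats, grouped by the labels, was tailed, tagged, hybridized to 1-color µParaflo chips and stained with Cy5, 1 array per rat. The authors deposited each array's scanner intensity (median brightness and SD of the pixels per spot, linear, background included) and 1 table of processed intensity, linear, after background subtraction and a LOWESS filter. How the table's repeated spots were combined is not given in the sources used here; its medians per array were 11 to 18.5, and its Spearman rho with the scanner values 0.978 to 0.994. No slide, scan or batch is named.

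From the scanner values, background was removed with normexp (offset 50), log2 values of the 4 spots were averaged, and arrays were normalized by cyclic LOWESS fitted to the 761 miRNA probes (span 0.7, 3 iterations). A probe was detected when 2 or more of its 4 spots exceeded the background (the median over the 25% dimmest miRNA spots) by over 3 SD, taken from empty spots, with a spot CV under 0.5. Only miRNAs found on 3 or more of the 6 arrays entered the test in limma 3.58.1 (lmFit, eBayes) in R 4.3.3, with Benjamini-Hochberg adjustment over all of them and a threshold of 0.05. Arm ratios and departures from the 5p mean were fitted likewise over all hairpins or miRNAs. The pipeline was tested on simulated data. Figures used Python 3.11.15 with matplotlib 3.10.9. Alternatives (23 planned, 1 added) covered background, normalization, processed values, filters, spot summary, array weights, the methods' t-test, GC content and each array left out. The text names all members, miRNAs sharing their 5p seed, the 5 nearest patterns and the connective tissue growth factor list; members and lists were chosen with earlier results of these data known. p-values measure the spread between single hearts, 3 per group, which limits the precision.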

Additional observations from a re-analysis of the deposited data

How the results depend on the processing

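No paired analysis was possible because control and DSS rats carry different numbers, and no block for slide or scan could be fitted, neither being recorded. A bound for probes undetected in 1 group only was not run, since no member was such a probe. No called miR-30 result changed its direction. Of 25 other miRNAs named or listed, 20 were called, beside 49.3% of all miRNAs tested. The 25 include the 5 picked for their likeness to the lower 5p mean, and the lists were chosen with earlier results known. Each of the 20 lost its call in at least 1 setting, and 1 changed sign, miR-223-3p, to 0.0028 with spike-in scaling. The 5p members called lower numbered 5, and 4 with an offset of 16 or with the authors' processed values at a pseudocount of 1, 3 with spike-in scaling, 3 with 5S rRNA scaling, 1 with no filter on dim probes and 0 with the methods' t-test (5 at an unadjusted p under 0.05); leaving out 1 array gave 0 to 5. The 3p members called higher numbered 1, and 0 with no normalization, with either 75th percentile scaling, with the authors' processed values at a pseudocount of 32 or 1, with no filter and with the t-test, 3 with spike-in or 5S rRNA scaling, and 0 to 1 with 1 array left out. The mean 5p change moved to -2.22 with the 75th percentile of all probes and was -1.79 to -1.24 with 1 array left out. All miRNAs called numbered 139, and 74 with no filter, 0 with the t-test (155 unadjusted) and 0 to 142 with 1 array left out (84 without control replicate 9, 69 without DSS replicate 14, 0 without DSS replicate 16). Arm pairs called numbered 19 of 57, and 61 of 309 with no filter, 10 of 25 with detection on all arrays, 0 with the t-test (23 unadjusted) and 0 to 22 with 1 array left out (with control 9 out 12, with control 11 out 11, with DSS 14 out 2 and with DSS 16 out 0). The miR-30 arm pairs called lower numbered 5, and 3 with an offset of 16, 3 with the processed values at either pseudocount, 3 of the 3 tested with detection on all arrays, 2 of the 3 tested with detection at 5 SD, 6 of the 6 tested with no filter, 0 with the t-test and 0 to 5 with 1 array left out. The 5p members departing from the family numbered 1, and 0 with plain background subtraction, no normalization, either 75th percentile, spike-in or 5S rRNA scaling, 2 with an offset of 16, quantile normalization, the processed values at either pseudocount, the median of spots or the GC correction, 4 with array weights, 3 with the t-test and 0 to 2 with 1 array left out. The cause of these differences was not tested. Array weights did not fully converge in 2 fits. For dim 3p arms the offset of 50 and the background limit the changes that can be seen.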
